A study of Mus musculus with 14 samples.

Results

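The loci described here are those of 9 chemokine receptor genes that guide T cells into tissues and sites of inflammation, namely Ccr2, Ccr4, Ccr6, Ccr8, Ccr9, Cxcr3, Cxcr4, Cxcr5 and Cxcr6. Chromatin accessibility was measured by bulk ATAC-seq, in which a transposase cuts open DNA and reads pile up over accessible stretches, called regions below. A region belonged to a receptor when its midpoint lay in the gene or had the gene's start as its nearest protein-coding start in RefSeq, on the mouse build GRCm38. By this rule 90 of the 67254 regions belonged to the 9 genes, and 82 of the 61366 regions with enough counts to be tested. All 90 were assigned by the nearest start, which says where a region lies and not which gene it acts on. Cxcr4 had 31 regions, Ccr4 15, Ccr6 and Cxcr5 11 each, Ccr9 6, Ccr2 5, Ccr8 and Cxcr6 4 each and Cxcr3 3.

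The 14 libraries came from the spleens of mixed BM chimeras. CD45.2+ BM from control Foxp3CreAtg14+/fl or from Foxp3CreAtg14fl/fl donors was mixed with CD45.1+ WT BM and given to sublethally irradiated Rag1-/- hosts, which reconstituted for 6 to 8 weeks and which make no mature T or B cells of their own. Both groups of donors carried the Cre, which is expressed from Foxp3, so deletion of Atg14 was directed to Foxp3-expressing cells of the fl/fl donors, and the labels give the controls 1 floxed allele. CD45.2+CD4+Foxp3-YFP+ cells were sorted, by gates that included CD44, into central Tregs (cTregs, CD44- in the labels and CD44low in the methods) and effector Tregs (eTregs, CD44+ and CD44high), with 3 control libraries of either state and 4 Atg14-deficient libraries of either state. The labels do not tie libraries to single hosts, but the study's methods give as many chimeras of each genotype as there are libraries in a group. The methods say that mice of both sexes were used in the study, but do not give the sex or age of these hosts.

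Chemokine receptors are G protein-coupled receptors of the cell surface. A cell moves towards the source of the chemokine that its receptors bind, so the set of receptors a T cell carries directs the tissue it enters. Resting Tregs recirculate through lymphoid organs, whereas effector Tregs change their receptors and enter skin, gut, lung and inflamed sites or the B cell follicle. Atg14 is a subunit of the Vps34 lipid kinase complex that starts autophagy.

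To show what the open chromatin of these loci contains, the central 200 bp of 1 region per gene are printed below, from the GRCm38 plus strand. For Ccr4, Ccr6, Ccr9, Cxcr4 and Cxcr5 this is the region with the smallest p between Atg14-deficient eTregs and cTregs among those past the adjusted threshold, and for the others the most accessible of the named regions, in both cases leaving out windows over an exon of the gene. Names give the distance in kb from the nearest start of the gene, negative when upstream. Capitals mark matches to the AP-1, TCF/LEF, RUNX, T-box, GATA and ETS motifs, on either strand, whose letters are spelled out with their shares.
Ccr4 +19.52 kb window, chr9:114476563-114476762: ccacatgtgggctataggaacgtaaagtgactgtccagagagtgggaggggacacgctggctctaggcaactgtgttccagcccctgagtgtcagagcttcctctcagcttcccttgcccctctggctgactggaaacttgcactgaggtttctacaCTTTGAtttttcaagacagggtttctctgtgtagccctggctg
Ccr6 -26.16 kb window, chr17:8209781-8209980: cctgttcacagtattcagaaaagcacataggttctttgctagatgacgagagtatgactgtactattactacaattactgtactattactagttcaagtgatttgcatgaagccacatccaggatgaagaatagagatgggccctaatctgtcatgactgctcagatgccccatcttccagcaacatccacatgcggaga
Ccr9 -10.27 kb window, chr9:123756839-123757038: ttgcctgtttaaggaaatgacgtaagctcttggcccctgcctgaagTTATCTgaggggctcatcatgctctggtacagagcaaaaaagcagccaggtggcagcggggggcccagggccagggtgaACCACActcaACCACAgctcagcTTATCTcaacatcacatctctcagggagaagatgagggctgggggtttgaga
Cxcr4 -9.22 kb window, chr1:128601423-128601622: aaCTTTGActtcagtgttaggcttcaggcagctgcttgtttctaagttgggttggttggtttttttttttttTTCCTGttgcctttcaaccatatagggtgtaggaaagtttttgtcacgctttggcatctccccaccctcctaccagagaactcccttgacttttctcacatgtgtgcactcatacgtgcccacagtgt
Cxcr5 -2.11 kb window, chr9:44528451-44528650: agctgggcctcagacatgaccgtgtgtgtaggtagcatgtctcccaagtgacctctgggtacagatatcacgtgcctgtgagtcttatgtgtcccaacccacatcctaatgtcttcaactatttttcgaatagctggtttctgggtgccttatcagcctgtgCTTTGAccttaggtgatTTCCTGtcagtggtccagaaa
Cxcr3 -3.24 kb window, chrX:101737285-101737484: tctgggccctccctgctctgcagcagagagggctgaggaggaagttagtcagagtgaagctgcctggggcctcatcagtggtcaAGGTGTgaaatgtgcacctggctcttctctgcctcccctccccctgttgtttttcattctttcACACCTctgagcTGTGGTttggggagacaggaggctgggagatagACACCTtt
Cxcr6 +8.02 kb window, chr9:123814400-123814599: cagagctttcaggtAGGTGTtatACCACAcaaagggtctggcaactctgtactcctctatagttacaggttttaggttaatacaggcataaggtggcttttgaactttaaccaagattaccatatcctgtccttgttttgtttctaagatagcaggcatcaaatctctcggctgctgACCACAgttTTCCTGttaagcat
Ccr8 -0.11 kb window, chr9:120091927-120092126: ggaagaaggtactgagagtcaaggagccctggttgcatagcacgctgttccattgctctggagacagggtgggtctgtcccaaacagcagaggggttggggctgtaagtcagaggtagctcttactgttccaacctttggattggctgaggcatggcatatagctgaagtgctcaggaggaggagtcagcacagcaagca
Ccr2 -33.25 kb window, chr9:124068565-124068764: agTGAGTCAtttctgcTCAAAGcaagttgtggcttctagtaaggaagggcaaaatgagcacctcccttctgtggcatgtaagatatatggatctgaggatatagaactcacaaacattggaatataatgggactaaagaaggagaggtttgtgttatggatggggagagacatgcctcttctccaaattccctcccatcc
The Cxcr3 window held 3 T-box matches and 1 RUNX match, and the Ccr9 window held 2 RUNX and 2 GATA matches. The AP-1 and TCF/LEF matches of the Ccr2 window lay at its left end. The Ccr6 and Ccr8 windows held none of these letters. A match is a description of the sequence and not evidence of binding.

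Total counts per library ran from 2242983 to 5548189, and the median tested region of these loci had a mean count of 22.0 per library, against 23.0 for all tested regions. Accessibility is given as CPM, that is, the count of a region per 1000000 counts of its library. No region lay at the starts of the 4 B cell markers, of Cd8a, of Cd4 or of Foxp3, while Il2ra, Ikzf2, Ctla4, Cd3e and Cd3g had one. Of 4 myeloid markers only Spi1 had a region (6.88 to 10.1 CPM as group means), and of 2 NK cell markers only Klrb1c (0.964 to 3.31 CPM). The region at the start of Cd8b1, a CD8 T cell gene, averaged 16.1 CPM in control and 16.3 CPM in Atg14-deficient cTregs but 4.35 and 4.94 CPM in the eTregs, so it moved with cell state. Its part in the comparisons between cell states was not tested. The start of the cTreg marker Ccr7 averaged 30.2 CPM in control cTregs and 11.1 CPM in control eTregs. The summed eTreg markers did not separate the sorted states, at 189 to 229 CPM in cTregs and 196 to 229 CPM in eTregs, and Maf and Prdm1 made up most of this sum. The means of Icos were lower in eTregs (31.9 against 19.8 CPM in control and 38.8 against 22.9 CPM in Atg14-deficient cells), against its label, whereas those of Tigit (9.16 against 15.2 and 11.6 against 16.2 CPM) and Klrg1 (0.801 against 2.79 and 2.46 against 3.76 CPM) were higher. The region at the start of Atg14 lay between 16.8 and 35.2 CPM in all libraries. The positions of the floxed exons are not given in the sources used here, so this value does not check the labels.

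The receptor loci differed in how open they were. They also differed in the share of regions at gene starts, with 2 of 4 at Ccr8, 2 of 31 at Cxcr4 and 0 of 6 at Ccr9. The part of this share in the order below was not tested. Per kb of region, Ccr8, the receptor for CCL1 found on tissue Tregs, stood highest in control cTregs (40.2 ± 3.8 CPM per kb, SD, n = 3), followed by Ccr9 (38.9 ± 6.24) and Cxcr4 (38.2 ± 3.32), whose libraries overlapped. Ccr4 (25.9 ± 1.79) lay below these and apart from Cxcr6 (21.0 ± 1.15), and from Cxcr6 down each neighbour overlapped the next, through Ccr2, Cxcr5 and Ccr6 to Cxcr3 (10.0 ± 4.57). In control eTregs Ccr8 stood highest again (47.6 ± 7.49 CPM per kb) with no overlap with Cxcr4 (33.6 ± 1.34), Cxcr4 did not overlap Ccr9 (24.9 ± 4.93), and Ccr2 (11.9 ± 1.41) was lowest, overlapping Ccr6 (12.9 ± 1.16). Cxcr3 rested on only 3 regions with a mean summed count of 46.9 per library, the lowest of the 9 loci. In Atg14-deficient cTregs Ccr9 (48.7 ± 7.14 CPM per kb, SD, n = 4) stood above Ccr8 (42.5 ± 6.59), with overlap. In Atg14-deficient eTregs Ccr8 (45.7 ± 9.09) was highest, and Ccr6 (17.0 ± 2.29) was lowest and overlapped Ccr2 (17.4 ± 2.94). Cxcr3 is X-linked, and Y-chromosome regions were covered in every library (53.0 to 99.4 CPM).

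**Figure D1:**
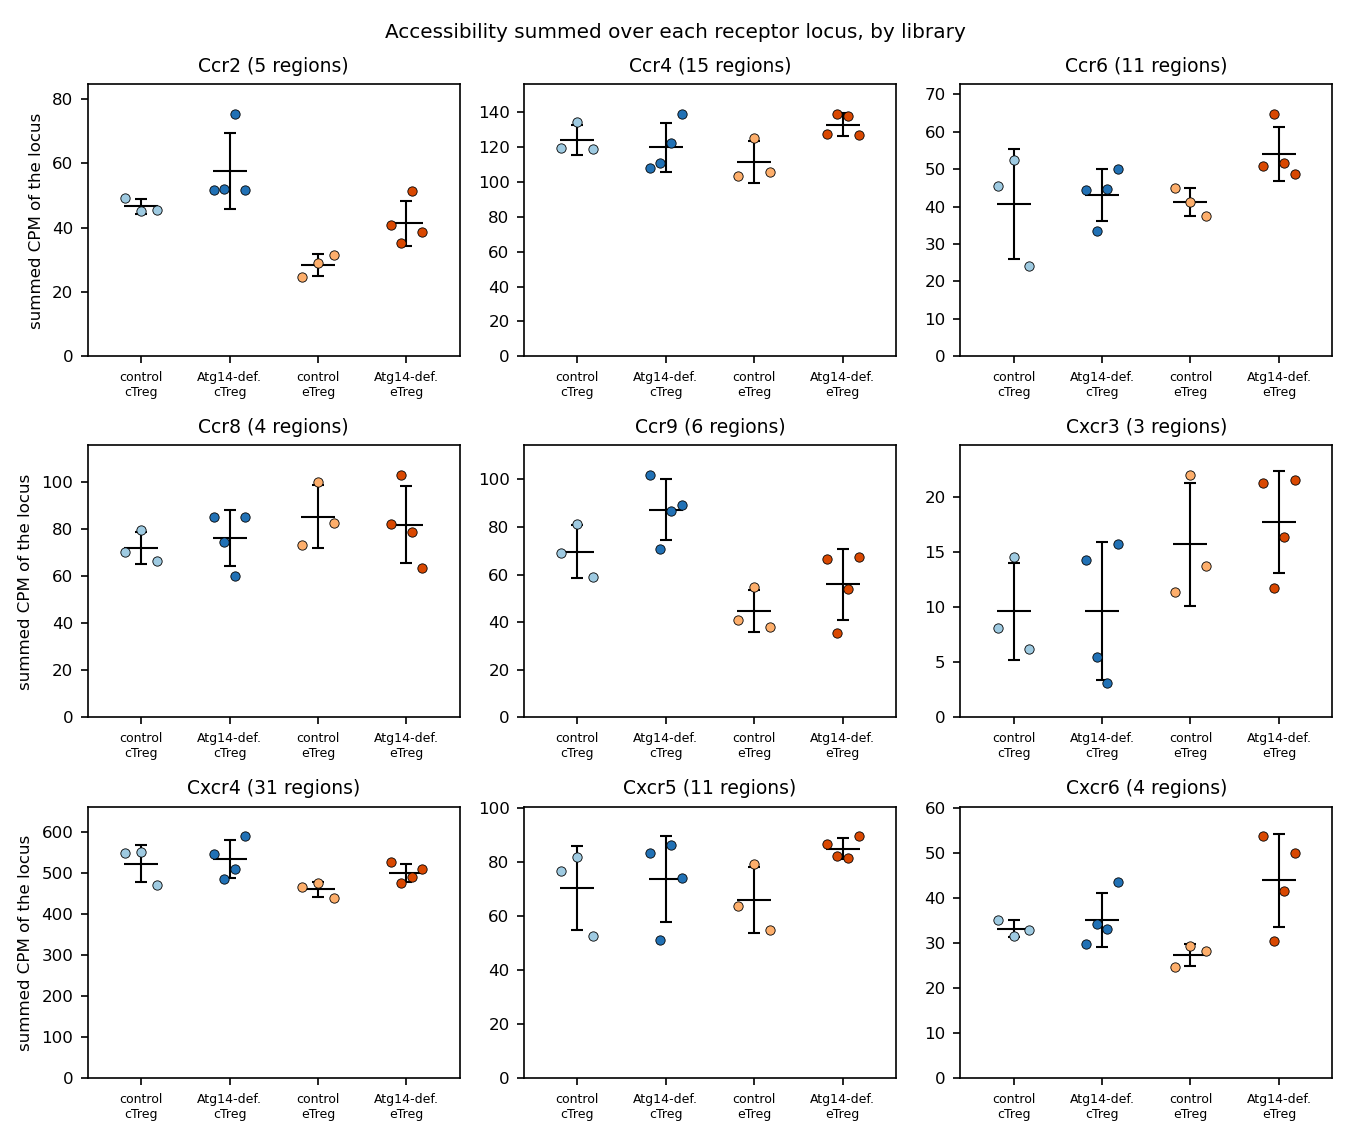
Summed CPM of all regions of each receptor locus (y axis, from 0) in every library of the 4 groups (x axis), with points for libraries and bars for the mean ± SD. Ccr2 and Ccr9 lie lower in eTregs than in cTregs of the same genotype without overlap, and Cxcr6 lies higher in Atg14-deficient than in control eTregs.

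The first comparison asked how these loci differ between effector and central Tregs of control origin. Summed over their regions, the loci of Ccr2, the CCL2 receptor of inflammatory recruitment, and Ccr9, the CCL25 receptor for homing to the small intestine, were less accessible in eTregs. The Ccr2 locus measured 49.4, 45.2 and 45.5 CPM in the 3 control cTreg libraries and 24.7, 28.9 and 31.4 CPM in the 3 control eTreg libraries, with no overlap. Its log2 fold change was -0.71 ± 0.18 (SE) with an adjusted p of 0.016 by edgeR's quasi-likelihood test over 15268 gene loci, of which 5.83% were called (adjusted p under 0.05 and a log2 fold change beyond 0.5). The Ccr9 locus measured 68.9, 81.1 and 58.9 CPM in control cTregs and 41.0, 54.6 and 38.0 CPM in control eTregs, again without overlap (log2 fold change -0.66 ± 0.19, adjusted p = 0.039). Both calls rested on few libraries. The Ccr2 call was lost without control cTreg replicate 1 or control eTreg replicate 1 (adjusted p up to 0.088), and the Ccr9 call without control cTreg replicate 1 or 2 or control eTreg replicate 1 or 3 (up to 0.146). The other 7 loci did not pass, their log2 fold changes lying between -0.27 for Cxcr6 and 0.67 for Cxcr3.

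At single regions no receptor region passed the adjusted threshold between control eTregs and control cTregs (0 of 82), where 5.3% of all tested regions did. By edgeR's unadjusted p, 12 passed with 3 higher and 9 lower in eTregs, against 18.2% of all regions (7.76% higher, 10.4% lower), and DESeq2's Wald test likewise gave 0 after adjustment. The split of the unadjusted calls rested on single libraries, with 7 higher and 7 lower without control cTreg replicate 2 and 1 higher and 12 lower without control cTreg replicate 3. With the replicate number as a block, 6 receptor regions passed the adjusted threshold (1 higher, 5 lower), where 10.4% of all regions did, although same-numbered control libraries did not all deviate together. The lowest adjusted p without the block, 0.0602, belonged to the Ccr2 -33.25 kb region (chr9:124068350-124068981), the tallest of that locus. It measured 27.4, 27.8 and 29.4 CPM in control cTregs and 16.9, 16.3 and 17.7 CPM in control eTregs, a log2 fold change of -0.73 ± 0.23. These groups did not overlap. The start region of Ccr8 measured 29.1, 28.0 and 25.0 CPM in control cTregs and 29.3, 43.3 and 36.6 CPM in control eTregs (log2 fold change 0.41 ± 0.21, adjusted p = 0.268), with the eTreg libraries above the cTreg libraries. The Ccr8 -7.52 kb region went the other way, with 10.8, 9.57 and 10.3 CPM in control cTregs and 4.88, 2.89 and 5.77 CPM in control eTregs (-1.15 ± 0.39). It did not pass the adjusted threshold either. Over the 82 regions the median log2 fold change was -0.17, against -0.01 over all tested regions, and 29 lay above 0.

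The same comparison within Atg14-deficient cells, with 4 libraries in each group, gave 11 of 82 receptor regions past the adjusted threshold, 6 higher and 5 lower in eTregs, where 9.81% of all tested regions were called. The 11 lay at Cxcr4 (5), Ccr4 (2), Ccr6 (2), Cxcr5 (1) and Ccr9 (1), and none at Ccr2, Ccr8, Cxcr3 or Cxcr6. Same-numbered eTreg and cTreg libraries of this genotype deviated together, and with the number as a block 23 regions passed (12 higher, 11 lower), where 15.5% of all regions did. All 11 were among the 23. The block also called Ccr2 -33.25 kb (-0.58, adjusted p = 0.018) and Ccr2 -21.94 kb (-1.11, adjusted p = 0.0101) as lower and 1 Cxcr3 region as higher, and none at Ccr8 or Cxcr6. For 8 of the 82 tested regions, fewer than 3 libraries outside a single group reached the filter's 2.81 CPM, and of the 11 called these held Ccr4 +18.99 kb. The split was not stable. With at least 10 counts in every library 33 receptor regions were left, none of the 6 higher ones among them, and 0 were called higher and 5 lower. It was 2 higher and 5 lower without cTreg replicate 2, 2 and 4 without cTreg replicate 3, and 10 and 5 without cTreg replicate 4. Leaving out single libraries gave between 5 regions (without eTreg replicate 1) and 15 (without cTreg replicate 4).

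**Figure D2:**
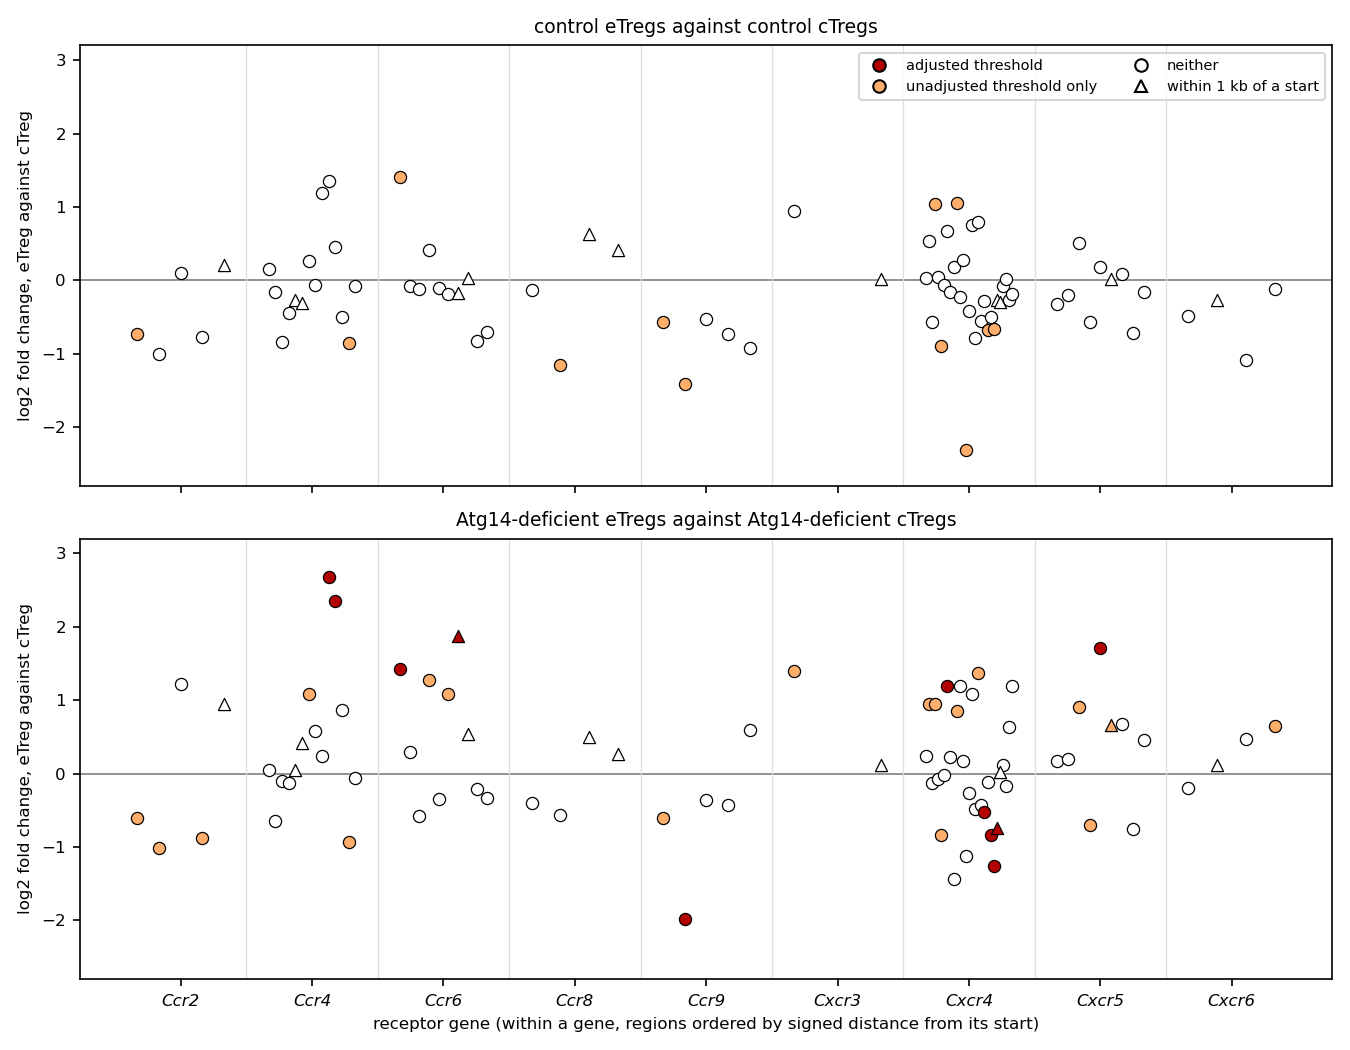
Log2 fold change of eTregs against cTregs (y axis) for each of the 82 tested regions, grouped by receptor gene (x axis), in control cells (top) and Atg14-deficient cells (bottom). Filled dark points passed the adjusted threshold in the fit without a block (0 in control cells and 11 in Atg14-deficient cells), and light points passed the unadjusted threshold alone.

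Ccr4, the receptor for CCL17 and CCL22 that takes T cells to skin and lung, had 2 regions downstream of the gene among those called higher. The Ccr4 +19.52 kb region (chr9:114476476-114476851, intergenic) measured 0.840, 0, 3.16 and 2.57 CPM in the 4 Atg14-deficient cTreg libraries, from counts of 2, 0, 12 and 8. In the 4 Atg14-deficient eTreg libraries it measured 5.39, 13.4, 8.21 and 10.0 CPM. The groups did not overlap, and the log2 fold change was 2.35 ± 0.52 (SE, adjusted p = 0.00507). Its neighbour at +18.99 kb measured at most 1.56 CPM in Atg14-deficient cTregs and at least 4.79 CPM in Atg14-deficient eTregs (2.67 ± 0.74, adjusted p = 0.0197). Outside the Atg14-deficient eTregs no library reached the 2.81 CPM that the filter on low counts asks of 3 libraries, so the +18.99 kb region was tested only through the group in which it was high and supports nothing by passing. The +19.52 kb call held without each library in turn, whereas that at +18.99 kb was lost without cTreg or eTreg replicate 3 (adjusted p up to 0.0553). In control cells the same regions differed by 0.45 ± 0.57 and 1.36 ± 0.84. The Ccr4 start region did not follow: its log2 fold change was 0.04 ± 0.25 in Atg14-deficient and -0.26 ± 0.29 in control cells. The downstream region Ccr4 +43.55 kb, pointed the other way. It measured 12.5, 10.1 and 9.81 CPM in control cTregs and 4.88, 6.30 and 6.67 CPM in control eTregs, without overlap (-0.85 ± 0.41, adjusted p = 0.244). In Atg14-deficient cells its log2 fold change was -0.93 ± 0.38 (adjusted p = 0.11), and it passed as lower with the number as a block (-1.0 ± 0.35, adjusted p = 0.0401) and under the mean of both genotypes (-0.89 ± 0.28, adjusted p = 0.022).

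At Ccr6, the CCL20 receptor for mucosal and inflamed tissue, 2 regions were higher in Atg14-deficient eTregs. The Ccr6 -0.26 kb region (chr17:8251707-8252022) lies beside an internal start of this gene, which has 9 RefSeq starts, and overlaps an exon. It measured 0.840, 0.779, 1.58 and 2.57 CPM in Atg14-deficient cTregs, from counts of 2, 2, 6 and 8. In Atg14-deficient eTregs it measured 8.99, 5.02, 2.65 and 5.65 CPM (log2 fold change 1.88 ± 0.55, adjusted p = 0.0275). The lowest eTreg library stood just above the highest cTreg library. The Ccr6 -26.16 kb region (chr17:8209739-8210024) differed by a like amount in both genotypes and passed in Atg14-deficient cells. Its 3 control cTreg libraries measured 3.18, 1.92 and 1.78 CPM and its control eTreg libraries 6.51, 6.82 and 5.59 CPM, a log2 fold change of 1.41 ± 0.50 in control cells (adjusted p = 0.0974) and of 1.42 ± 0.46 in Atg14-deficient cells (adjusted p = 0.0447). Leaving out any of 5 of the 8 Atg14-deficient libraries ended the -0.26 kb call (all but cTreg replicate 4 and eTreg replicates 2 and 3, adjusted p up to 0.12). For the -26.16 kb call it was any of 6 (all but cTreg replicate 4 and eTreg replicate 2, up to 0.13).

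Cxcr5 is the CXCL13 receptor that brings T cells to the B cell follicle. The Cxcr5 -2.11 kb region (chr9:44528436-44528666) measured 0.840, 1.17, 2.63 and 1.61 CPM in Atg14-deficient cTregs and 7.49, 3.35, 3.18 and 7.45 CPM in Atg14-deficient eTregs, without overlap (1.71 ± 0.52, adjusted p = 0.0343). In control cells it measured 1.96, 4.07 and 1.78 CPM in cTregs and 1.95, 4.20 and 2.88 CPM in eTregs, which overlapped (0.18 ± 0.58). The call was lost without cTreg replicate 1, 2 or 4 or eTreg replicate 1 or 4 (adjusted p up to 0.121). The taller Cxcr5 -6.85 kb region pointed down in both genotypes, by -0.57 ± 0.34 in control and -0.70 ± 0.30 in Atg14-deficient cells, and passed with the block (adjusted p = 0.00958) and under the mean of both genotypes (-0.63, adjusted p = 0.0455).

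Without the block, the regions that fell lay at Ccr9 and Cxcr4. The Ccr9 -10.27 kb region (chr9:123756814-123757065) measured 6.72, 5.45, 9.99 and 8.35 CPM in Atg14-deficient cTregs and 1.20, 1.67, 1.59 and 3.08 CPM in Atg14-deficient eTregs. The difference (-1.99 ± 0.43 on the log2 scale, adjusted p = 0.00399) held without each library in turn. In control cells it measured 8.31, 5.03 and 9.81 CPM in cTregs and 2.60, 4.20 and 1.80 CPM in eTregs (-1.42 ± 0.46, adjusted p = 0.0692). No eTreg library of either genotype reached the lowest cTreg library of its genotype. The tallest Ccr9 region, at -12.62 kb, had a log2 fold change of -0.60 ± 0.21 in Atg14-deficient cells (adjusted p = 0.0637). It passed as lower with the number as a block (-0.61 ± 0.12, adjusted p = 0.000388) and under the mean of both genotypes (-0.58 ± 0.16, adjusted p = 0.0107). The Ccr9 locus as a whole measured 102, 70.9, 86.8 and 89.3 CPM in Atg14-deficient cTregs and 66.5, 35.6, 54.0 and 67.3 CPM in Atg14-deficient eTregs (-0.63 ± 0.17, adjusted p = 0.0126), where 11.8% of gene loci were called. Without eTreg replicate 2 its log2 fold change was within 0.5. The Ccr2 locus also fell in Atg14-deficient eTregs (-0.48 ± 0.15, adjusted p = 0.0327) but stayed within a log2 fold change of 0.5.

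Cxcr4, the CXCL12 receptor that holds cells in bone marrow and lymphoid tissue, had 4 regions lower in Atg14-deficient eTregs near the gene and 1 higher far upstream. The Cxcr4 -9.22 kb region (chr1:128601342-128601705) measured 27.7, 17.5, 20.8 and 16.7 CPM in Atg14-deficient cTregs and 10.8, 6.69, 9.53 and 7.19 CPM in Atg14-deficient eTregs, without overlap (-1.26 ± 0.26, adjusted p = 0.0026), and the call held without each library. In control cells it measured 13.2, 20.6 and 13.4 CPM in cTregs and 11.1, 9.45 and 9.73 CPM in eTregs (-0.66 ± 0.29). The regions at -0.60 kb (-0.74 ± 0.21), -13.71 kb (-0.83 ± 0.25) and -22.77 kb (-0.53 ± 0.13) fell as well, with adjusted p from 0.00863 to 0.0316. Of these, the -22.77 kb region was the tallest, at 67.8 to 78.6 CPM in Atg14-deficient cTregs and 46.4 to 59.0 CPM in Atg14-deficient eTregs. The Cxcr4 -178.71 kb region rose from between 2.63 and 8.35 CPM to between 9.76 and 18.0 CPM (1.19 ± 0.37, adjusted p = 0.0351). The start region at -0.08 kb measured 38.9 to 45.3 CPM in Atg14-deficient cTregs and 40.2 to 47.5 CPM in Atg14-deficient eTregs (0.02 ± 0.15), and the summed Cxcr4 locus differed by -0.09 ± 0.08 (adjusted p = 0.464). Without single libraries the calls at -0.60, -13.71, -22.77 and -178.71 kb were lost for 4, 5, 3 and 4 of the 8 libraries.

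**Figure D3:**
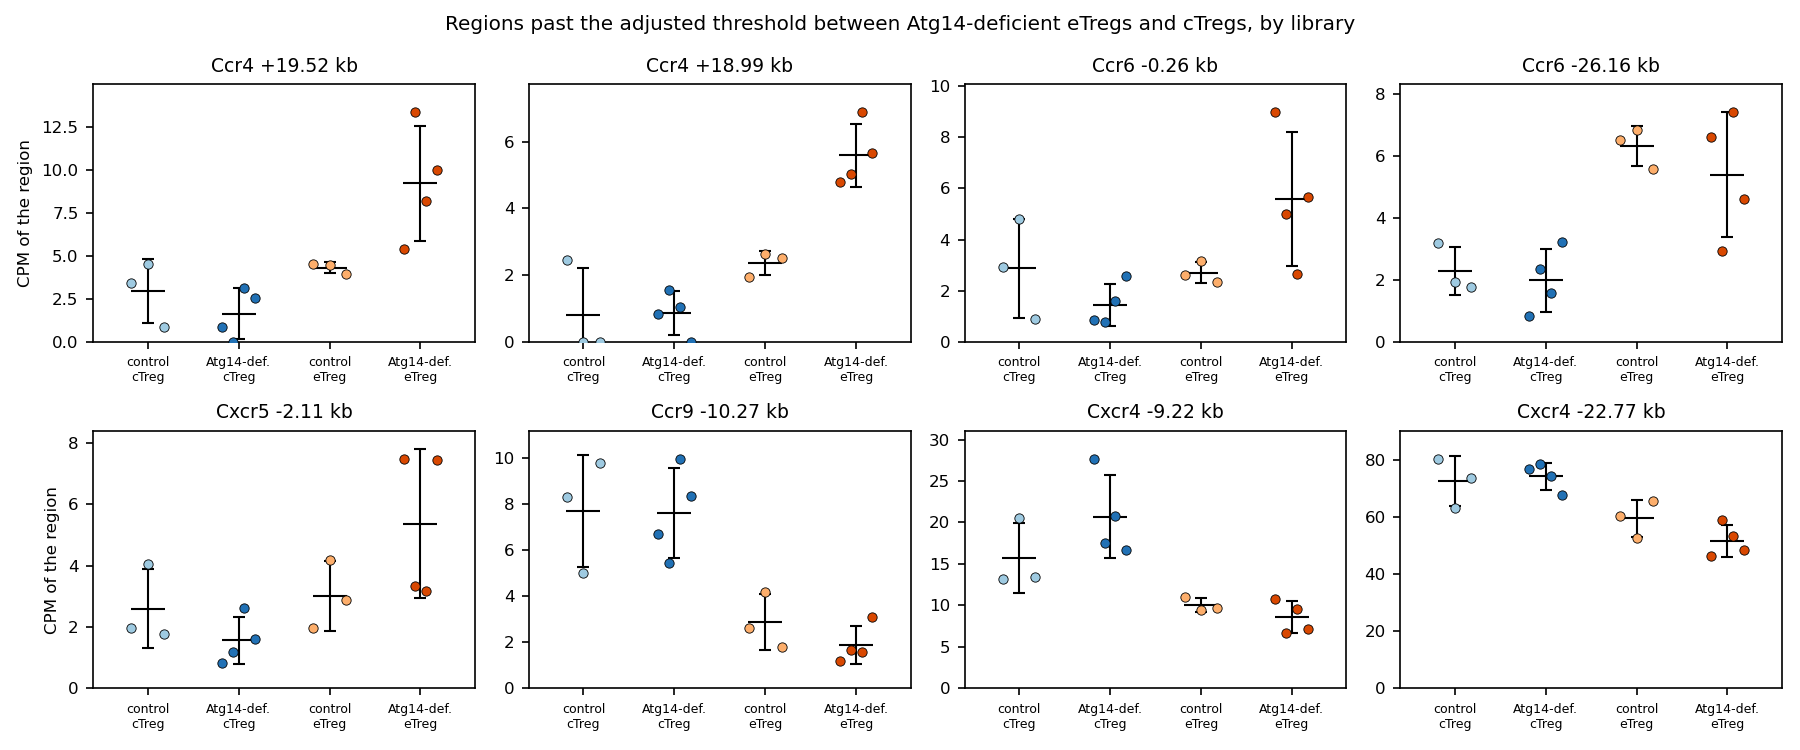
CPM (y axis, from 0) of the regions past the adjusted threshold between Atg14-deficient eTregs and cTregs, at most 2 per gene by smallest p, in every library of the 4 groups (x axis), with the mean ± SD. The means of the Ccr4, Ccr6 and Cxcr5 regions are higher in Atg14-deficient eTregs, although the libraries of Ccr6 -26.16 kb overlap, and those of Ccr9 and Cxcr4 are lower.

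Ccr8, Cxcr3 and Cxcr6, which mark tissue, type 1 inflamed and lung or liver T cells, had no region past the adjusted threshold here. The Cxcr3 -3.24 kb region (chrX:101737180-101737590) had the smallest adjusted p of the 3 genes. It measured 4.20, 1.56, 1.58 and 9.96 CPM in Atg14-deficient cTregs and 12.6, 6.69, 10.1 and 15.9 CPM in Atg14-deficient eTregs (1.40 ± 0.49, adjusted p = 0.0673). Replicates 1 and 4 were high, and 2 and 3 low, in cTregs, and with the number as a block the region passed (1.56 ± 0.36, adjusted p = 0.00164). In control cells it measured 2.69, 10.1 and 2.68 CPM in cTregs and 7.48, 12.9 and 10.5 CPM in eTregs (0.94 ± 0.54). The Ccr8 start region differed by 0.27 ± 0.18 (adjusted p = 0.371), and the Cxcr6 start region by 0.12 ± 0.27 (adjusted p = 0.819).

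The average of both genotypes uses all 14 libraries for the cell state difference, and was added after the data were seen. It called 21 of the 82 receptor regions, 8 higher and 13 lower in eTregs, where 18.9% of all regions were called. Cxcr4 had 3 higher and 5 lower, Ccr2 3 lower, Ccr4 2 higher and 1 lower, Ccr9 2 lower, Cxcr5 1 higher and 1 lower, Ccr6 and Cxcr3 1 higher each, and Ccr8 1 lower. Of these, Ccr4 +18.99 kb and Cxcr4 -105.74 kb reached the filter's CPM in 0 and 1 libraries outside the group where each was highest. They were tested only through that group and support nothing by passing. All 3 Ccr2 regions lay upstream of the gene, at -1.24, -21.94 and -33.25 kb (log2 fold changes -0.83 ± 0.26, -1.0 ± 0.32 and -0.67 ± 0.15). The Cxcr3 -3.24 kb region passed (1.17 ± 0.36, adjusted p = 0.0231). The Ccr6 -0.26 kb and Cxcr5 -2.11 kb regions did not, with adjusted p of 0.133 and 0.0817, and the Cxcr4 -22.77 kb region fell short on the fold change alone (-0.40, adjusted p = 0.003). The other 8 of the 11 regions of the Atg14-deficient comparison were among the 21.

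The next comparison asked what loss of Atg14 did to these loci within each cell state. In eTregs no receptor region passed the adjusted threshold (0 of 82), and 0.0228% of all tested regions did. By the unadjusted p, 8 receptor regions passed by edgeR and all 8 were higher in Atg14-deficient eTregs (1 of them, Ccr2 -2.66 kb, reached the filter's CPM in that group alone), where 6.36% of all regions passed, 4.59% as higher and 1.77% as lower. DESeq2's Wald test also gave 0 after adjustment. Of the 82 regions, 64 had a log2 fold change above 0, with a median of 0.23 against 0.06 over all tested regions. Under TMM, DESeq2 size factors and loess offsets the number above 0 was 60 to 61 and the median 0.159 to 0.188. With total-count scaling, the median of 0.06 means that most of all tested regions also lay above 0. At Ccr2 -2.66, Ccr4 +18.99, Ccr6 -9.11, Ccr9 +6.27 and Cxcr4 +71.33 kb, fewer than 3 libraries outside Atg14-deficient eTregs reached the filter's 2.81 CPM. These regions are among the 64, and their direction supports nothing. The Treg markers with a region at their start (3 of 4, without Foxp3) summed to between 80.0 and 87.4 CPM in control eTregs and between 103 and 107 CPM in Atg14-deficient eTregs, and to between 109 and 119 CPM in control and between 123 and 149 CPM in Atg14-deficient cTregs. They thus moved with genotype in both cell states and with cell state in both genotypes, and their part in any of these comparisons was not tested.

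The Cxcr6 locus showed the smallest p. Cxcr6 is the CXCL16 receptor of T cells resident in lung and liver. Its summed CPM was 24.7, 29.4 and 28.3 in control eTregs and 53.9, 30.5, 41.6 and 50.1 in Atg14-deficient eTregs, so every Atg14-deficient library stood above the control libraries, replicate 2 only just. The log2 fold change was 0.69 ± 0.18 (SE), and it did not pass over all gene loci (adjusted p = 0.146, 0.157% of loci called), nor in the two-sided exact permutation test (p = 0.0571, the smallest that 3 against 4 libraries allow). Leaving out Atg14-deficient eTreg replicate 2 gave 0.81 and an adjusted p of 0.0416, and the other 6 left-out libraries gave adjusted p from 0.122 to 0.492. The Cxcr6 +8.02 kb region (chr9:123814143-123814858), which lies inside the neighbouring gene Fyco1, measured 13.0, 12.6 and 8.65 CPM in control eTregs and 20.4, 10.0, 22.2 and 25.2 CPM in Atg14-deficient eTregs (0.80 ± 0.28, adjusted p = 0.472), and replicate 2 lay within the controls. In cTregs the Cxcr6 locus measured 35.2, 31.6 and 33.0 CPM in control and 29.8, 34.3, 33.1 and 43.7 CPM in Atg14-deficient libraries, which overlapped (0.09 ± 0.19).

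The Ccr2 locus measured 24.7, 28.9 and 31.4 CPM in control eTregs and 40.8, 35.1, 51.4 and 38.5 CPM in Atg14-deficient eTregs, without overlap (0.55 ± 0.17, adjusted p = 0.194). In cTregs it measured 51.7, 52.2, 75.5 and 51.7 CPM in Atg14-deficient libraries against 45.2 to 49.4 CPM in controls (0.31 ± 0.17, adjusted p = 0.997). The Atg14-deficient libraries thus stood above the controls in both cell states without passing the test. In cTregs the lowest of them (51.7 CPM) lay close to the highest control (49.4 CPM), and replicate 3 (75.5 CPM) lay far above the others. How often loci did not overlap between genotypes was counted for eTregs only. Within the locus, the Ccr2 +0.11 kb start region measured 0, 1.05 and 3.24 CPM in control eTregs and 5.69, 2.93, 6.09 and 7.45 CPM in Atg14-deficient eTregs (1.80 ± 0.66, adjusted p = 0.49), with replicate 2 below the highest control. The Ccr6 +3.00 kb region, in an intron, measured 4.55, 2.36 and 1.98 CPM in control eTregs and 5.99, 6.69, 5.82 and 8.48 CPM in Atg14-deficient eTregs, without overlap (1.23 ± 0.47, adjusted p = 0.516). The summed loci of Ccr4, Ccr6, Cxcr4 and Cxcr5 likewise did not overlap, being higher in Atg14-deficient cells, between the genotypes in eTregs, with log2 fold changes of 0.25, 0.39, 0.12 and 0.37 and adjusted p from 0.332 to 0.565, whereas those of Ccr8, Ccr9 and Cxcr3 overlapped. The genotypes thus did not overlap at 6 of the 9 loci, all 6 higher, and at 11% of all tested loci, 6.15% as higher.

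In cTregs no receptor region passed the adjusted threshold either, where 0.0163% of all regions did. A single region passed the unadjusted threshold by edgeR, where 3.34% of all regions did (1.99% higher, 1.35% lower), and DESeq2's Wald test gave 0 after adjustment. This was Cxcr4 -0.60 kb (chr1:128591078-128591564), with 21.3, 19.4 and 17.4 CPM in control and 25.2, 33.1, 25.0 and 31.2 CPM in Atg14-deficient cTregs (0.55 ± 0.23, unadjusted p = 0.0226 and adjusted p = 1 over all regions). The direction of this count turned with single libraries, to 0 higher and 3 lower without Atg14-deficient cTreg replicate 4 and to 0 higher and 1 lower without control cTreg replicate 3. The median over the receptor regions was -0.01, against 0.03 over all tested regions, and 40 of 82 lay above 0. None of the 9 summed loci passed, where 0.0589% of all loci did.

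**Figure D4:**
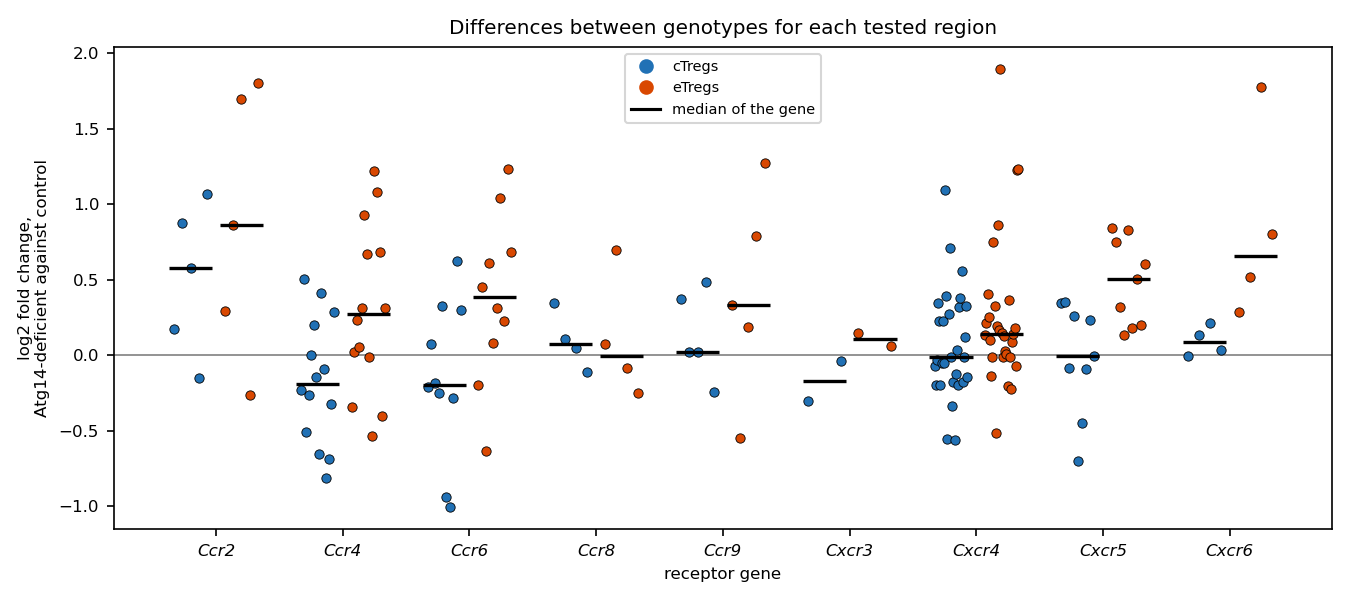
Log2 fold change of Atg14-deficient against control (y axis) for each tested receptor region, by gene (x axis), in cTregs and eTregs, with the median of each gene as a bar. In eTregs 64 of 82 regions lie above 0 and in cTregs 40 of 82, and 0 regions passed the adjusted threshold in either. The median over all tested regions was 0.06 in eTregs and 0.03 in cTregs.

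The interaction, which tests whether the eTreg to cTreg difference depends on genotype, called 0 of the 82 regions, 0% of all tested regions, and 0 of the 9 summed loci. By the unadjusted p, 3 receptor regions passed by edgeR, all with the more positive change in Atg14-deficient cells, against 3.05% of all regions (1.9% higher, 1.14% lower), and DESeq2's Wald test gave 0 after adjustment. They were Ccr6 -0.26 kb (2.05 ± 0.81), Ccr4 +19.52 kb (1.9 ± 0.78) and Ccr4 +33.41 kb (1.37 ± 0.64), each with an adjusted p of 1. The count became 0 higher and 1 lower without control cTreg replicate 2, and 2 higher and 1 lower without control eTreg replicate 1. The changes that passed within Atg14-deficient cells and not within control cells are therefore not shown to differ between the genotypes. The Cxcr6 locus had an interaction of 0.60 ± 0.26 (adjusted p = 1). The genotype and cell state comparisons share libraries, so their values for a region are not independent.

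Other genes of the pathway were read in the same way, against 5.3% of all tested regions called between control and 9.81% between Atg14-deficient cell states. Of 56 tested regions at 10 other chemokine receptor genes, 4 were called lower and 0 higher in control eTregs, and all 4 lay at Ccr7, the receptor for lymph node entry. The region at the Ccr7 start had a log2 fold change of -1.44 ± 0.29 in control (adjusted p = 0.00315) and -0.96 ± 0.24 in Atg14-deficient cells (adjusted p = 0.0113). In Atg14-deficient cells 2 were higher, at Ccrl2 (1.48 ± 0.43) and Ccr1 (0.83 ± 0.25), and 4 lower, all again at Ccr7. Of 47 regions at 11 chemokine genes, 3 were higher in control and 5 in Atg14-deficient eTregs and 0 lower, at Ccl1, the ligand of Ccr8, Xcl1 and Cxcl12. The Ccl1 -59.85 kb region rose by 4.44 ± 0.95 (adjusted p = 0.00353) in Atg14-deficient cells. At 13 genes of receptor signalling, 8 of 102 regions were called in control cells (3 higher, 5 lower) and 12 in Atg14-deficient cells (7 higher, 5 lower). The start region of Gnai2, an inhibitory G protein subunit used by these receptors, rose by 0.84 ± 0.17 (adjusted p = 0.00195) and that of Rgs16, which shortens G protein signals, by 0.62 ± 0.18 (adjusted p = 0.023) in Atg14-deficient eTregs. None of these regions passed the adjusted threshold in the genotype comparisons or the interaction by edgeR, and DESeq2 was not run on them. By edgeR's unadjusted p, 10 regions of the other receptors, 3 of the chemokines and 9 of the signalling genes passed for Atg14 loss in eTregs, against 1, 2 and 2 in cTregs and 5, 2 and 6 for the interaction. Over all tested regions these thresholds were passed by 6.36%, 3.34% and 3.05%.

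The receptor regions also had features that the rule did not use. At gene starts lay 13.3% of them, against 21.9% of all regions, and the rest comprised 61 intergenic regions, 9 in introns and 8 inside another gene. Their median length was 327.5 bp (325 bp over all) and the median GC content of their central 200 bp was 48.5% (50.5% over all). Each motif was searched on both strands. AP-1 letters (TGANTCA), bound by Fos, Jun and BATF proteins, were in 19 of 82 tested receptor regions (23.2%, 95% Wilson interval 15.4 to 33.4), against 11.6% of 61322 regions. TCF/LEF letters (CTTTGA), bound by factors of resting T cells, were in 24 (29.3%, 20.5 to 39.9), against 14.8%. RUNX letters (TGTGGT) stood at 31.7% against 22.7%, at the edge of its interval of 22.6 to 42.4. T-box letters (AGGTGT) stood at 11.0% against 12.2% and KLF letters (CCACNCCC) at 7.32% against 10.5%. GATA letters (AGATAA) stood at 8.54% against 8.61% and ETS letters (CAGGAA) at 30.5% against 31.4%, and the NF-kB motif at 2.44% against 1.44%. For these 5 motifs the interval held the share of all regions. Among regions over 1 kb from a start, which removes the difference in the share of starts, AP-1 stood at 22.9% against 13.8% and TCF/LEF at 31.4% against 17.2%. Regions of a locus are not independent of each other, and the intervals cover counting error only.

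**Figure D5:**
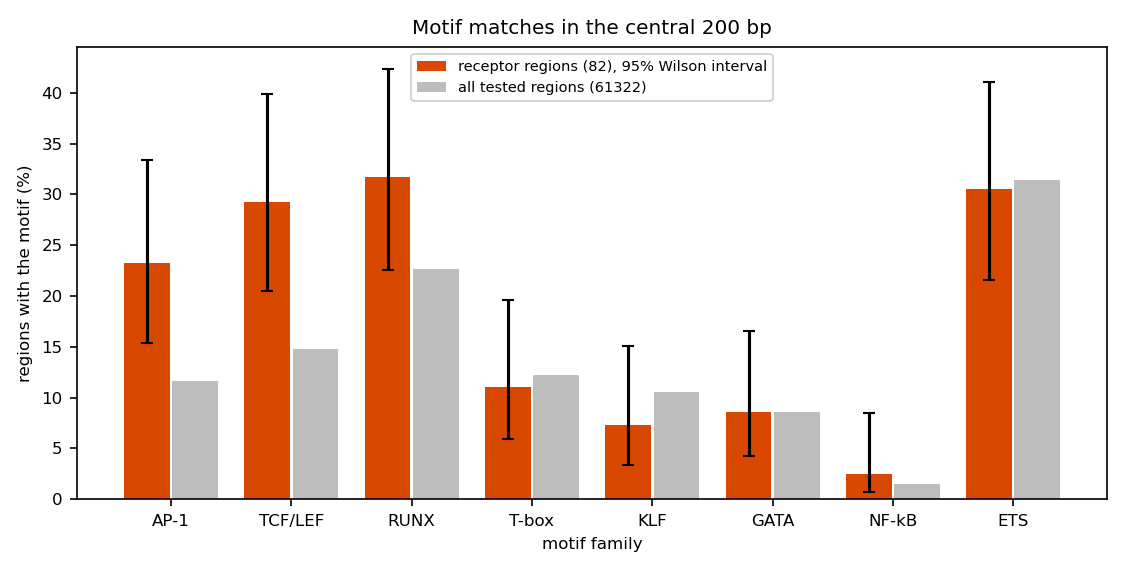
Share of regions (y axis, %) whose central 200 bp hold each motif (x axis), for the 82 receptor regions with 95% Wilson intervals and for all 61322 regions. AP-1 and TCF/LEF letters were in 23.2% and 29.3% of receptor regions and in 11.6% and 14.8% of all regions.

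As a description, the gene loci whose summed accessibility followed each receptor most closely over the 14 libraries were found among 11218 loci. The highest Pearson r was 0.953 for Ccr9 with Olfr266, 0.949 for Ccr2 with Sptbn1, 0.946 for Cxcr4 with Gramd1b, 0.926 for Ccr6 with Btbd19, 0.923 for Cxcr5 with Rplp1, 0.883 for Cxcr6 with Gm52006, 0.858 for Ccr4 with Dgka and 0.847 for Ccr8 with Cacna1e. Cxcr3 was below the minimum mean count of 50. All loci share the same 14 libraries and their depth.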

How the data were processed

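ATAC-seq was performed on splenic cTregs and eTregs in 14 libraries of 4 groups. Per the study's methods and the submitters' processing notes, trimming and alignment by the authors were followed by duplicate removal (Picard), a transposase offset of the read ends and selection of nucleosome-free fragments. Peaks were called per sample with MACS2, kept when found in at least 50% of the replicates, merged when overlapping by 100 bp, and counted with bedtools. The methods name the build mm9 and the notes mm10 and GRCm38. The deposited table holds raw counts per region, without normalization. All 67207 regions on chromosomes lay within GRCm38, and 11820 of 21774 protein-coding genes had a start within 200 bp of a region, against 1333 after shifting the regions by 20000 bp, so GRCm38 was used.

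Counts were fitted with edgeR 4.0.16 (R 4.3.3, limma 3.58.1), by its quasi-likelihood test with robust dispersion on all 14 libraries and total-count scaling, after filterByExpr, with Benjamini-Hochberg adjustment over all 61366 tested regions or 15268 gene loci (summed counts of a gene's regions). The adjusted threshold was an adjusted p under 0.05 and a log2 fold change beyond 0.5, and the unadjusted threshold used the unadjusted p. The biological coefficient of variation was 25.6%, and 82.0% of the counts were even. Alternatives used DESeq2 1.42.0 and other scalings, filters and blocks. Scripts used Python 3.11.15, pandas 2.3.3, NumPy 2.4.6, SciPy 1.17.1 and matplotlib 3.10.9, and the fits were tested on simulated data. The rule for named regions took, per gene, the region at its start, the most accessible region and up to 5 regions past the adjusted threshold, and, in each genotype comparison and the interaction, the 3 with the smallest p. Ccr8 -7.52 kb, Ccr2 -1.24 kb, Ccr2 -2.66 kb, Ccr4 +43.55 kb and the regions named at other genes of the pathway were chosen after their values were seen. So were the regions named only for how they passed the filter. Intervals are Wilson's at 95% and cover counting error only.

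Same-numbered eTreg and cTreg libraries deviated together in the Atg14-deficient groups (correlations of deviations 0.119, 0.243, 0.14 and 0.225) but not in all control pairs (0.0543, 0.209 and 0.19), and not across genotypes (-0.217 to 0.0914). The members and gene lists were chosen with earlier results of these data known. Results that need a gene withheld from the text, a list holding it included, are not reported here.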

Additional observations from a re-analysis of the deposited data

Results flagged for a closer look

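Of 78 groups of 4 libraries examined, 4 held 1 library far from the other 3 by Dixon's test, and chance flags about 1 in 20. The Ccr2 locus summed to 75.46 CPM in Atg14-deficient cTreg replicate 3 and to between 51.65 and 52.17 CPM in the others. The Ccr2 -21.94 kb region measured 14.29 CPM in Atg14-deficient eTreg replicate 3 and between 3.347 and 5.137 CPM in the others. The Ccr4 -0.10 kb start region measured 34.94 CPM in Atg14-deficient eTreg replicate 3 against 16.95 to 18.28 CPM, and 22.61 CPM in Atg14-deficient cTreg replicate 3 against 20.88 to 21.02 CPM.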

How the results depend on the processing

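No value of a single region or locus reversed under the alternatives run. Several counts changed their split into higher and lower without single libraries, and the causes of the changes were not tested. Over the alternatives that kept all libraries, 317 values kept their call or, for motif shares, stayed within their interval, and 37 calls of regions or loci were lost. The 5 values that moved were all motif shares in the central 100 bp. Over left-out libraries 209 calls of regions and loci were kept and 106 were lost. The mean of both genotypes was added after seeing the data. For control cell states, the 0 adjusted regions became 21 under the mean of both genotypes and 1 with only the groups compared, and left-out libraries gave 0 to 1. The 12 unadjusted regions became 7 with at least 10 counts in every library, 6 at a log2 cutoff of 1 and 28 under the mean, with 8 to 14 for left-out libraries. The 2 loci became 0 at the cutoff of 1, with 0 to 2 for left-out libraries (0 without control cTreg or eTreg replicate 1, 1 without control cTreg replicate 2 or eTreg replicate 3). For Atg14-deficient cell states, the 11 adjusted regions became 5 (0 higher) with at least 10 counts and 21 under the mean, with 5 to 15 for left-out libraries (7 and 6 without cTreg replicates 2 and 3, 5 and 6 without eTreg replicates 1 and 4). By the unadjusted p, 29 receptor regions passed (17 higher, 12 lower), where 23.1% of all regions did (11.4% higher, 11.8% lower). The 29 became 10 with at least 10 counts and 14 at the cutoff of 1, with 18 (without cTreg replicate 3) to 32. The single locus became 2 under TMM, DESeq2 size factors, loess offsets and DESeq2's Wald test, 3 under the mean and 0 at the cutoff of 1, with 0 to 3 for left-out libraries. For Atg14 loss in eTregs, the 8 unadjusted regions became 2 with at least 10 counts and 5 with loess offsets, with 5 (without control eTreg replicate 1) to 10, and the 0 loci 0 to 1. In cTregs the 1 unadjusted region became 0 at the cutoff of 1, 2 with no filter and 2 with only the groups compared, with 1 to 3 for left-out libraries (0 higher and 3 lower without Atg14-deficient cTreg replicate 4, 0 and 1 without control cTreg replicate 3). The 3 unadjusted interaction regions became 0 with at least 10 counts, with 1 (as lower, without control cTreg replicate 2) to 7 (without Atg14-deficient eTreg replicate 2). In the central 100 bp the motif shares were 13.4% (AP-1), 14.6% (TCF/LEF), 18.3% (RUNX), 1.22% (GATA) and 1.22% (KLF), against 6.93%, 7.91%, 14%, 4.11% and 5.5% of all regions.

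With the replicate number within a genotype as a block, 6 adjusted regions (1 higher, 5 lower) passed between control cell states and 23 regions and 2 loci between Atg14-deficient cell states. The same-numbered control pairs had correlations of 0.0543, 0.209 and 0.19, not all below the 0.119 to 0.243 of the Atg14-deficient pairs. With a replicate block by number, 0 regions passed the unadjusted threshold for Atg14 loss in cTregs.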
